A study of Mus musculus with 6 samples.

Results

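The genes of the 3 troponin subunits and of the myosin-binding proteins C were examined in mouse embryos, in the outflow tract, which carries blood out of the early heart. The family holds 10 genes, namely Tnnt1, Tnnt2 and Tnnt3 for troponin T, Tnni1, Tnni2 and Tnni3 for troponin I, Tnnc1 and Tnnc2 for troponin C, and Mybpc1 and Mybpc3. All 16 probe sets whose annotation names only 1 of these genes were taken, out of 45037 probe sets other than controls, and 0 probe sets named a member together with another gene. The family was selected on earlier results of the superior against inferior comparison in these same arrays, in which Tnnt1 was among the differing genes. Region differences of the members are therefore given as a description, and calls of the fit across the whole table are not independent support.

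The arrays of interest carried RNA of the superior subdomain of the outflow tract, excised from hearts of CD1 embryos at embryonic day 10.5, and they were set against arrays of the inferior subdomain of the same stage and strain. Each region had 3 arrays, 1 for each of the pools numbered 1, 6 and 7, and a pool joined pieces from several littermates. The sample labels speak of 6 embryos in a pool and the design text of 7 dissected samples. No source used here says that the pools were separate litters, so any p measures the spread between these pools. The labels state no allele or treatment. A dissected piece holds muscle, endocardium, mesenchyme and covering cells together, and fewer cells of a type and less RNA per cell cannot be told apart in it.

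Troponin sits on the thin filament of striated muscle. Troponin C binds calcium, troponin I holds the filament off in the resting state, and troponin T ties the complex to tropomyosin. Myosin-binding protein C lies on the thick filament and tunes the movement of myosin heads. Each comes in isoforms named for the adult muscle that uses them: Tnnt1, Tnni1 and Mybpc1 for slow skeletal muscle, Tnnt3, Tnni2 and Tnnc2 for fast skeletal muscle, and Tnnt2, Tnni3 and Mybpc3 for heart. Tnnc1 serves heart and slow muscle alike, and Tnni1 is the main troponin I of the embryonic heart before Tnni3 replaces it.

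The deposited value is a MAS5 signal, a linear intensity that the authors scaled so that each array has the same trimmed mean. A signal above 8.0, the highest among Bacillus control probe sets that were not spiked, is called above background. Of the 6 arrays, the superior 6 array stood apart, with hybridisation controls at 1.63 times the median array against 0.86 to 1.02 in the other 5. The actin control signal at the 3′ end over that at the 5′ end, a measure of RNA length, was 2.23 and 2.26 in the superior and inferior arrays of pool 1, against 1.45 to 1.87 in the other 4. The same ratio for Gapdh was 2.21 in the inferior 1 array, against 0.83 to 1.3 in the other 5. Between regions the 3 measures gave p = 0.4, p = 0.6 and p = 0.9 (two-sided exact permutation test, where 3 against 3 arrays can give no p below 0.1). Heart muscle was present in the pieces, since all 8 listed cardiomyocyte markers were above background in all 6 arrays. Their summed signals were 13107 to 13555 in superior and 12163 to 13124 in inferior arrays. By gene, 3 were higher and 5 lower in superior arrays, with a median log2 difference of -0.05. Myh7 was the largest part of the sums, with signals of 5805.6 to 7678.3 over the 6 arrays.

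Members of the slow skeletal, fast skeletal and cardiac groups did not run together. Tnnt1 and Mybpc1 had lower signals in all 3 superior arrays than in any inferior array. Tnni2 had a higher superior signal within each pool, and the bright heart muscle genes Tnnt2, Tnni1 and Tnnc1 had slightly higher ones. Tnni3 and Mybpc3 overlapped between regions, Tnnt3 was dim, and Tnnc2 was not above background on any array.

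The upstream sequences of 5 members are shown. The pair with lower superior signals, Tnnt1 and Mybpc1, can be read beside Tnni3, the gene next to Tnnt1. Tnnt2 and Tnnc1 had slightly higher superior signals, as did Tnni1, whose windows are described after the sequences without being printed. Each printed sequence is the 250 bases before the annotated start, from RefSeq on GRCm38.p6, written 5′ to 3′ on the gene's strand. Tnnt1 lies at chr7:4515976-4516225 (minus strand), Mybpc1 at chr10:88605153-88605402 (minus strand), Tnni3 at chr7:4522529-4522778 (minus strand), the first start of Tnnt2 at chr1:135836084-135836333 (plus strand) and Tnnc1 at chr14:31208062-31208311 (plus strand). Capitals mark matches to the motifs described after the sequences.
Tnnt1: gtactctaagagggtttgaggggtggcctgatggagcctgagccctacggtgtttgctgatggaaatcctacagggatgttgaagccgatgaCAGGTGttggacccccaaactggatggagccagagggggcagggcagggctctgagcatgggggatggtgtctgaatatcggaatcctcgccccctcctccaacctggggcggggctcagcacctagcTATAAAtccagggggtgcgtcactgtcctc
Mybpc1: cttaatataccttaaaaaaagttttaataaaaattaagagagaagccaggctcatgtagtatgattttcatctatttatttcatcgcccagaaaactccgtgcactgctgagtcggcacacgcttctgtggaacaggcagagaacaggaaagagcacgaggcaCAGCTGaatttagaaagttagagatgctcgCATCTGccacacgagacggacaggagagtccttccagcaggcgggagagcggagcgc
Tnni3: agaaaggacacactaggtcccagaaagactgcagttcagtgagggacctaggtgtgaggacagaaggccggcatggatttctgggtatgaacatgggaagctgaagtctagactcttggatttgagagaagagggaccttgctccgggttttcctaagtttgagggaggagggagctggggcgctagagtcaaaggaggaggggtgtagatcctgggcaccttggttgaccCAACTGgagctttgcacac
Tnnt2: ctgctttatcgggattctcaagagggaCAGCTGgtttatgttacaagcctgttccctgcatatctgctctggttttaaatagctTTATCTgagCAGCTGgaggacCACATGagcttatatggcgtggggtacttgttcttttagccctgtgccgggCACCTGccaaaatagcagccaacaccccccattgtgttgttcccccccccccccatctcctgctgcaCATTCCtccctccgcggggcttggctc
Tnnc1: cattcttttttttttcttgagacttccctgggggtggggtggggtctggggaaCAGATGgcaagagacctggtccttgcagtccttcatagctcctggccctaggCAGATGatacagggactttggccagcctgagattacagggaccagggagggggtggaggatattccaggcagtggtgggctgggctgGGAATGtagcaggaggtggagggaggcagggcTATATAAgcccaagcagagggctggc

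Of the 10 genes, 8 had such windows in the table used, and Tnnt2 and Tnni1 had more than 1 annotated start, which gave 10 windows in all. The windows were searched on both strands for the E-box CANNTG, the M-CAT element CATTCC, the GATA motif as AGATAA or AGATAG or TGATAA or TGATAG, and the Nkx2-5 type motif AAGTG. MEF2 and CArG boxes were searched too, and TATAAA or TATATAA on the gene's strand only. An E-box lay in 10 of 10 member windows, and in 66.2% of all 32851 windows of that length. The 2 windows of Tnni1 overlap, and both E-boxes of the second lie in the shared bases, so they are counted in the first too. The M-CAT element, bound by TEAD factors and first described in a cardiac troponin T promoter of chicken, lay in 2 member windows, of Tnnt2 and Tnnc1, against 12.6% of all windows. A MEF2 box lay in the window of Mybpc3 alone among members, against 0.5% of all windows, and a CArG box in 0 of 10, against 1.5%. GATA motifs were in 2 member windows, of Tnnt2 and Mybpc3, against 26.5% of all, and AAGTG in 2, of Tnni1 and Mybpc3, against 40.7%. In Mybpc3 the AAGTG match lies inside an E-box match, so both counts share those bases.

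The 2 genes with lower superior signals held no match to the M-CAT, GATA, Nkx2-5 type, MEF2 or CArG motif in these windows. The same held for Tnni3, Tnnc2, the first window of Tnni1 and the second window of Tnnt2, so this was not particular to the pair. Tnni1, with slightly higher superior signals, had E-boxes in both overlapping windows, those of the second being sites of the first as well. It had an AAGTG match at -12 in the second window, but no M-CAT element. Tnnt1 had an E-box whose first base lay at position -158 from the start and a TATA match at -30, and Mybpc1 had E-boxes at -87 and -57. Tnni3 had a match to the E-box alone, at -19. The first window of Tnnt2 had 4 E-boxes, a GATA motif at -166 and its M-CAT element at -27. Tnnc1 had E-boxes at -197 and -145, its M-CAT element at -58 and a TATA match at -26. These matches describe letters in the window.

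**Figure D1:**
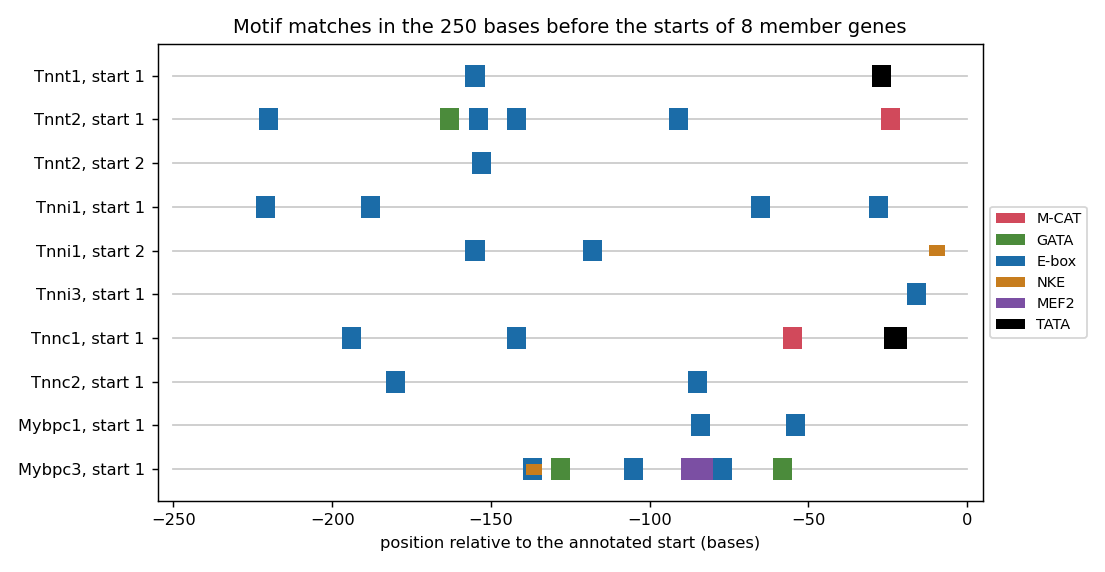
Positions of motif matches in the 250 bases before each annotated start of 8 member genes, with the start at the right and 1 line per window; coloured blocks are matches and the overlapping AAGTG match of Mybpc3 (NKE) is drawn inside its E-box. Every window has at least 1 E-box, and M-CAT matches are in Tnnt2 and Tnnc1.

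Among the troponin T genes, which anchor the complex to tropomyosin, Tnnt1 of slow skeletal muscle had signals of 541.6, 447.1 and 457.5 in superior pools 1, 6 and 7. Its signals in inferior pools were 1065.3, 769.2 and 1067.2. The 2 regions did not overlap, and the superior signal was lower within every pool, at 0.508, 0.581 and 0.429 of the inferior one. The mean was 482.1 ± 51.8 in superior and 967.2 ± 171.5 in inferior pools (SD, n = 3 each), a log2 difference of -0.99 ± 0.10 (SE of the paired fit), on the scale of log2(signal + 3.2). Among the 22518 probe sets tested, this was the 30th lowest difference.

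Tnnt1 was measured by 1 probe set. Its difference held its direction under every setting tried, between -1.09 and -0.88. Leaving out pool 6 gave -1.09 and leaving out pool 7 gave -0.88, and quantile normalization gave -1.01. Without pool 1, whose inferior array had the Gapdh ratio of 2.21, it was -0.997.

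Markers of skeletal muscle and its precursors had low signals in the same arrays, the highest being Myf5 at 29.5 in the inferior 7 array. Of the 10 listed, 0 were above background in all 6 arrays and 5 in none, Myf6, Chrna1, Chrng, Myh3 and Myh8. Myog, the factor that starts muscle fibre differentiation, was above background in the inferior 7 array only, at 14.6, and Myod1, which commits cells to skeletal muscle, in 3 arrays. The log2 difference was below 0 for 7 of the 10 and above 0 for 3, with a median of -0.42, the same sign as that of Tnnt1 and Mybpc1. Myog had -0.89 and Ckm, the muscle creatine kinase, -0.95, while Myh3 had 0.60, Actn3 0.47 and Chrng 0.065. Actn3 was above background in 5 arrays and Ckm in 2, so these differences lie close to or under the background. The summed marker signal ran from 39.6 to 55.7 in superior and from 34.9 to 103.8 in inferior arrays. The part of such cells in the Tnnt1 and Mybpc1 differences was not tested.

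Tnnt2, the troponin T of the heart, had signals of 4402.6, 5097.3 and 4594.7 in superior pools 1, 6 and 7 for its brightest probe set. The inferior signals were 4027.8, 3952.3 and 4299.8. The regions did not overlap, but the log2 difference was small, at 0.20 ± 0.10. A second bright probe set, of a type that can bind related transcripts, had signals of 4314.1 ± 78.9 in superior and 3863.9 ± 107.1 in inferior pools (SD, n = 3 each). The third was dim and ran the other way, with 36.1 ± 9.4 in superior and 45.6 ± 7.7 in inferior pools, and its regions overlapped. Quantile normalization turned the sign of both bright probe sets, to -0.03 and -0.05, and without pool 6 the brightest gave 0.11.

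Tnnt3, the troponin T of fast muscle, was dim, with signals of 18.0, 14.1 and 23.9 in superior pools 1, 6 and 7. The inferior signals were 12.1, 15.5 and 16.2. All 6 lay above background and the regions overlapped, with a higher superior signal in pools 1 and 7 and a lower one in pool 6. Its mean level was just above the filter on dim probe sets, a signal of about 15.1.

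**Figure D2:**
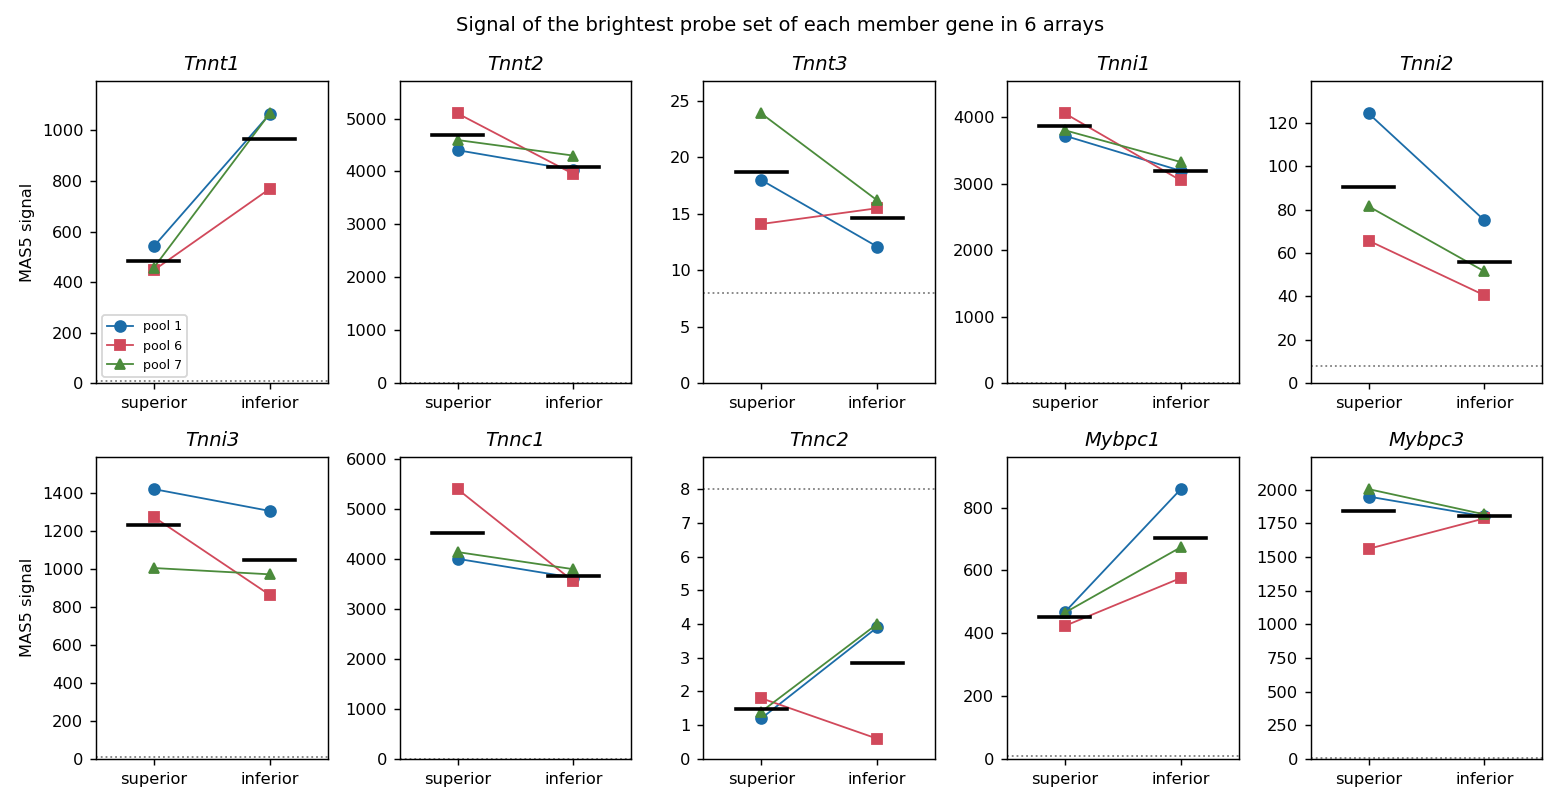
Signal of the brightest probe set of each of the 10 member genes, with superior arrays left and inferior arrays right, lines joining arrays of the same pool number, black bars at the mean of 3 arrays and a dotted line at the background signal of 8.0. Each panel has its own linear axis from 0; Tnnt1 and Mybpc1 lie lower in all superior arrays, and Tnnc2 lies under the background line.

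Of the troponin I genes, which hold the thin filament off at rest, Tnni1 had signals of 3724.5, 4060.4 and 3806.6 in superior pools 1, 6 and 7. Its inferior signals were 3196.2, 3051.1 and 3329.0. Every superior array lay above every inferior array, and the log2 difference was 0.28 ± 0.09. It was 0.21 without pool 6 and 0.09 under quantile normalization.

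Tnni2, the troponin I of fast skeletal muscle, had signals of 124.3, 65.7 and 81.5 in superior pools 1, 6 and 7 for its brightest probe set. The inferior signals were 75, 40.5 and 51.5. The regions overlapped, because the superior 6 signal was below the inferior 1 signal, yet within pools the superior signal was 1.66, 1.62 and 1.58 times the inferior one. This was the steadiest of all member differences, with a log2 difference of 0.66 ± 0.12 and an SD of 0.04 between pool differences, where the members' median SD was 0.20. It ranked 86th from the top among 22518.

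A dimmer Tnni2 probe set, 1438609_x_at, gave a log2 difference of 0.56 ± 0.18, with 29.8 ± 5.9 in superior and 19.8 ± 7.4 in inferior pools (SD, n = 3 each). The third, 1438608_at, is annotated to the same sequence entry as that one and was not above background on any array, with signals of 0.1 to 0.4 in superior and 0.2 to 0.4 in inferior arrays. The Tnni2 signal therefore depends on the probe set, and the dimmer measured one is of the type that can bind related transcripts.

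Tnni3, the adult heart's troponin I, had signals of 1419.3, 1272.2 and 1004.2 in superior pools 1, 6 and 7. Its inferior signals were 1304.4, 862.5 and 971.0. The regions overlapped, and the log2 difference of 0.24 ± 0.11 came mostly from pool 6, at 0.56, against 0.12 in pool 1 and 0.05 in pool 7. Without pool 6 it was 0.09.

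Tnni3 is the protein-coding neighbour of Tnnt1 on chromosome 7 in RefSeq's gene order. The adjoining genes thus stood on opposite sides of 0 in all 3 pools. The other troponin I and T genes lie in like pairs with 1 protein-coding gene between, Lad1 between Tnni1 and Tnnt2 on chromosome 1 and Lsp1 between Tnni2 and Tnnt3 on chromosome 7. In both of these pairs the log2 difference of the brightest probe sets was above 0, at 0.28 and 0.20 for Tnni1 and Tnnt2 and at 0.66 and 0.28 for Tnni2 and Tnnt3. This sign was held by 7 member genes in all, and 2 had the other. Dim Tnnt3 was at -0.11 in pool 6, and Tnnt2 turned to -0.03 under quantile normalization.

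Tnnc1, the calcium-binding troponin C of heart and slow muscle, had signals of 4003.8, 5398.3 and 4138.8 in superior pools 1, 6 and 7. Its inferior signals were 3625.9, 3551.1 and 3795.5. The regions did not overlap, and the highest value was that of the superior 6 array, whose hybridisation controls were at 1.63 times the median array. The log2 difference was 0.29 ± 0.12 over 3 pools, 0.13 without pool 6 and 0.08 under quantile normalization. The part of whatever set that array's hybridisation controls apart in the difference was not tested beyond these values.

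Tnnc2, the troponin C of fast skeletal muscle, was not above background in any array. Its signals were 1.2 to 1.8 in superior and 0.6 to 4.0 in inferior arrays, and no fold is given.

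Mybpc1, the slow skeletal myosin-binding protein C, had signals of 467.3, 423.4 and 465.5 in superior pools 1, 6 and 7 for its brightest probe set, 1455645_at. The inferior signals were 858.7, 575.8 and 673.7. No superior array reached the lowest inferior one, and the means were 452.1 ± 24.8 in superior and 702.7 ± 143.7 in inferior pools (SD, n = 3 each), a log2 difference of -0.62 ± 0.11.

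The other 2 Mybpc1 probe sets ran the same way without overlap. Probe set 1442769_at had 42.1 ± 6.7 in superior and 71.6 ± 10.6 in inferior pools, a log2 difference of -0.73 ± 0.14, and 1444341_at had 19.1 ± 5.4 in superior and 40.7 ± 12.8 in inferior pools, a log2 difference of -0.96 ± 0.17 (SD, n = 3 each). Their ranks from the bottom among 22518 were the 97th and the 34th, and that of the brightest the 230th. All 9 pool differences of the gene lay between -1.10 and -0.44. The pools themselves were ordered differently: the brightest probe set was highest in pool 1 in both regions, while the 2 dimmer ones were lowest there. Pool 1 had the higher actin ratios of 2.23 and 2.26 and, in its inferior array, the Gapdh ratio of 2.21, and their part in that order was not tested. Without pool 1 the brightest probe set gave -0.48.

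Mybpc3, the cardiac myosin-binding protein C, had signals of 1948.2, 1560.1 and 2003.5 in superior pools 1, 6 and 7. The inferior signals were 1801.0, 1786.1 and 1815.6. The superior signals spanned the inferior ones, and the log2 difference was 0.02 ± 0.10. Quantile normalization and cyclic loess both gave -0.08.

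**Figure D3:**
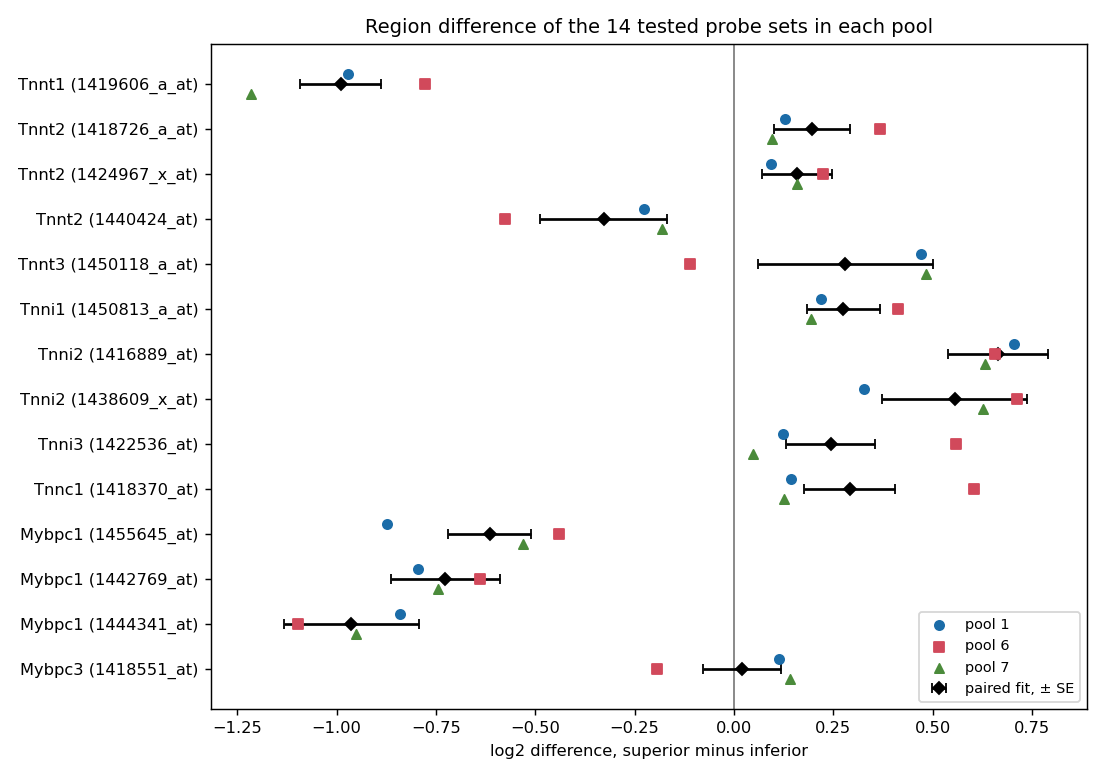
Log2 difference, superior minus inferior, of the 14 tested member probe sets: coloured points are the 3 pools, and the black diamond with its bar is the paired fit with its SE. Tnnt1 and the 3 Mybpc1 probe sets lie left of 0 in all pools, the 2 Tnni2 probe sets lie right of it, and pool 6 has the largest difference for Tnnc1 and Tnni3.

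**Figure D4:**
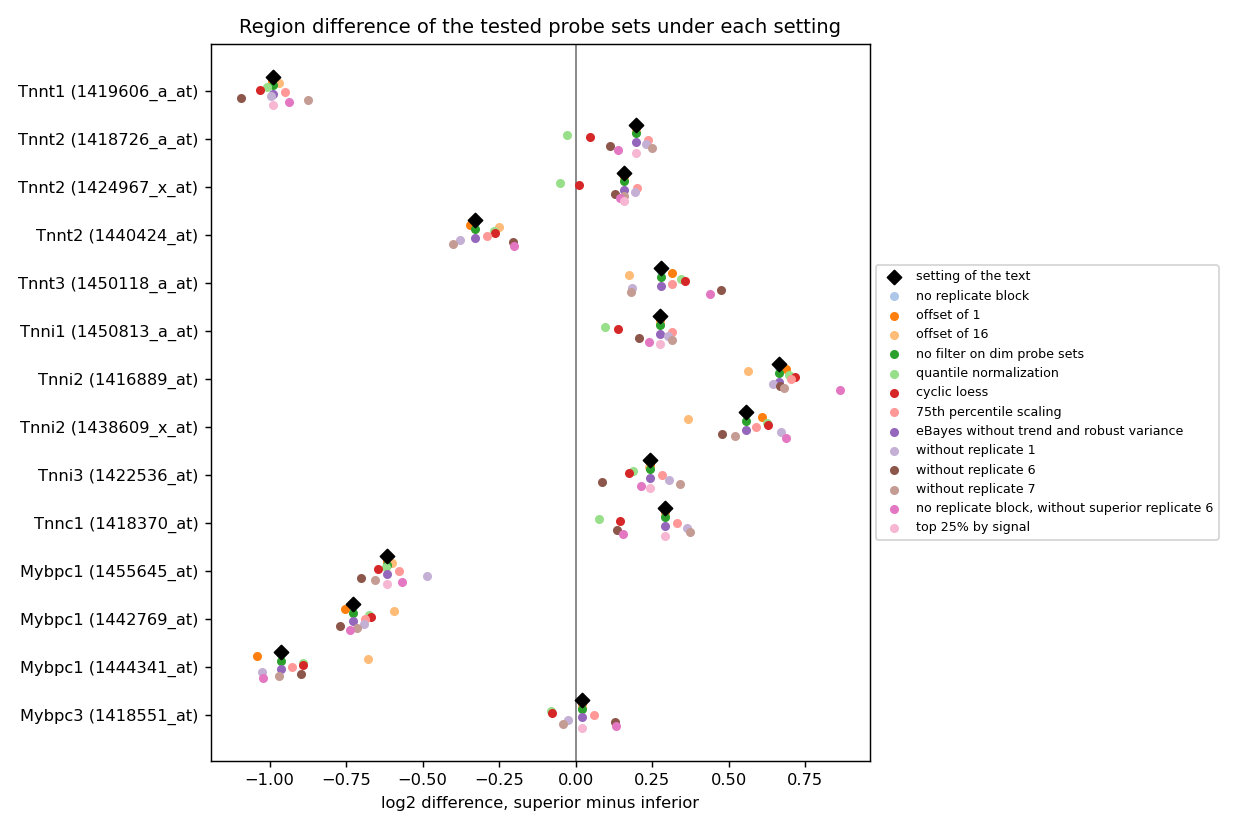
Log2 difference, superior minus inferior, of the 14 tested member probe sets under the setting of the text (black diamond) and each other setting (coloured points, offset downwards so that they can be told apart). Tnnt1 stays between -1.09 and -0.88, the 3 Mybpc1 probe sets stay left of 0, and Mybpc3 and the 2 bright Tnnt2 probe sets lie on both sides of 0.

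Across the whole table, regions were compared with limma, with pool numbers blocked. Of the 16 member probe sets, 14 passed the filter on mean signal, and they covered 9 of the 10 genes, Tnnc2 being the exception. In this paired fit 1 of the 14 was called, Tnnt1 (adjusted p = 0.0237), where 0.16% of the 22518 tested probe sets were called. The next smallest were the Mybpc1 probe sets at adjusted p of 0.0975, 0.106 and 0.122 and the brightest Tnni2 at 0.127. The others ran from 0.373 to 0.962. Nothing is read from this count, since the family was proposed from the same comparison.

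Without the pool number in the fit, limma called 0 of the 14, against 0% of all tested probe sets, and 6 of the 14 had an unadjusted p under 0.05, where 3.52% of all tested probe sets had one. The adjusted p of Tnnt1 was then 0.755, the smallest in the table. Other probe sets shared this value, so it does not rank Tnnt1 first. The paired call of Tnnt1 also ended when pool 1 was left out (adjusted p = 0.0555), when dim probe sets were kept (0.141), when only the brightest 25% were tested (0.0613) and with a plain variance model (0.202).

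Among the 14, the 3 superior values all lay below the inferior ones for 4 probe sets, Tnnt1 and the 3 of Mybpc1, and all above for 4, 2 of Tnnt2 and those of Tnni1 and Tnnc1. Over all tested probe sets 9.21% showed no overlap in either direction, and this measure too comes from the comparison that proposed the family. By gene, 7 of the 9 had a log2 difference above 0 for the brightest probe set and 2 below it. Their median was 0.24, against -0.02 over all tested probe sets, whose quartiles were -0.15 and 0.10. Pool 6 alone gave a median of 0.37, pools 1 and 7 gave 0.13 and 0.12, and quantile normalization took it to 0.08.

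The difference between pools is a measure that did not serve to propose the family. In an F-test of the pool term of the same limma fit, 1 of the 14 member probe sets was called, the brightest of Tnni2 (adjusted p = 0.0169), where 14.1% of all tested probe sets were called. Its signal was highest in pool 1 and lowest in pool 6 in both regions, at 124.3 and 65.7 in superior and 75 and 40.5 in inferior arrays. Its pool means lay 0.86 apart on the log2 scale. Pool 1 also had the higher actin ratios of 2.23 and 2.26 and, in its inferior array, the Gapdh ratio of 2.21, and their part in this call was not tested. Among the brightest probe sets of the other genes, those of Tnnt2, Mybpc3 and Tnnc1 lay 0.09, 0.19 and 0.20 apart, and those of Tnni3 0.46. The count was 0 among the brightest 25%, where Tnni2 was not tested, and 0 without pool 1.

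A list of 20 partners of these proteins on the thin filament and in the myosin-binding family, drawn up from textbook knowledge, was set beside the members. Of these, 17 had a tested probe set, and limma called 0 of their 38 probe sets in either fit, while 5 had an unadjusted p under 0.05 in the paired fit and 1 in the unpaired one, where 11% and 3.52% of all tested probe sets had one. The brightest probe set was higher in superior arrays for 8 genes and lower for 9, with a median log2 difference of -0.04. Mybpc2, Mybph and Neb were not above background on any array.

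By brightest probe set, the largest partner differences were those of Actc1, Lmod2, Mybphl and Tpm1. Actc1, the cardiac actin, had signals of 5544, 8496 and 6204 in superior pools 1, 6 and 7, against 5200, 5678 and 5019 in inferior pools, a log2 difference of 0.33 ± 0.11, with the highest again in the superior 6 array. Lmod2, a leiomodin that lengthens cardiac thin filaments, had 0.32 ± 0.11. Mybphl, a relative of myosin-binding protein H, had 0.22 ± 0.14, and Tpm1, the main tropomyosin of the heart, 0.21 ± 0.09. Dimmer probe sets of 4 partners had larger differences below 0, named here after their values were seen: Tpm2 at -0.55, Tmod3 at -0.40, Nebl at -0.35 and Ttn at -0.33.

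**Figure D5:**
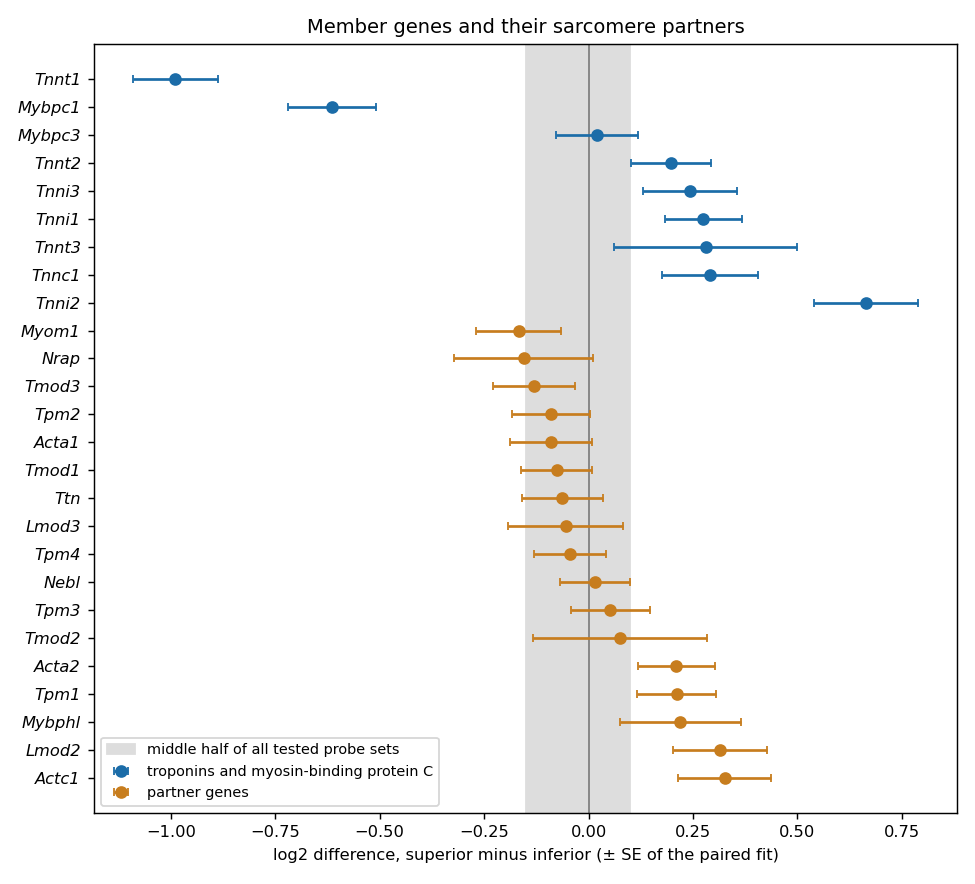
Log2 difference, superior minus inferior, with the SE of the paired fit, for the brightest probe set of 9 member genes (blue) and 17 partner genes (orange); the grey band holds the middle 50% of all tested probe sets, from -0.15 to 0.10. Tnnt1, Mybpc1 and Tnni2 lie outside the range of the partners' brightest probe sets, which runs from -0.17 to 0.33.

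Markers of other cells that a dissected piece can hold differed between regions beside these members. Of 8 chamber muscle markers, 6 were higher in superior arrays, with a median log2 difference of 0.51 and summed signals of 2484.3 to 3925.7 in superior and 1796.7 to 2632.3 in inferior arrays; Gja5 was above background in none. All 7 epicardial markers were higher in superior arrays, with a median log2 difference of 1.5 and sums of 968.3 to 1792.3 in superior and 460.2 to 793.8 in inferior arrays. Of 7 measured markers of the second heart field, the progenitors that feed the outflow tract, 5 were lower and 2 higher in superior arrays, with sums of 1492.1 to 1984.9 in superior and 1726.8 to 2435.1 in inferior arrays. Endocardial markers summed to 1454.1 to 1898.1 in superior and 1476.4 to 1704.1 in inferior arrays, with 4 genes higher and 2 lower in superior arrays. Erythroid ones summed to 13791.5 to 22471.6 in superior and 12408.0 to 15541.8 in inferior arrays, with 3 of 4 measured higher and 1 lower. The 6 smooth muscle markers summed to 8115.5 to 9376.2 in superior and 7562.4 to 7963.3 in inferior arrays. Of these 6, 4 were higher and 2 lower in superior arrays, with a median log2 difference of 0.13. Most of their sum came from Myl9 and Tagln, while the 2 lower ones, Smtn and Lmod1, had -0.33 and -0.25. The part of these shifts in the member differences was not tested.

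The genes whose pattern over the 6 arrays was most like that of Tnnt1 were ranked by Pearson's correlation of log2 values, taking for each gene its tested probe set with the highest correlation, as a description over arrays that share pools and regions. Coro7, a coronin of the Golgi, came first at 0.993, before Vps29, a subunit of the retromer, at 0.992, Efhd1, a calcium-binding protein of mitochondria, at 0.988, Zfp266 at 0.985 and Olfm1, a secreted olfactomedin, at 0.983. Efhd1 had signals of 13.6, 10.4 and 11.6 in superior and 47.9, 35.1 and 48.4 in inferior pools. Mybpc1 was the 57th of 11194 genes at 0.945, while Tnni1 was near the other end at -0.847.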

How the data were processed

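Total RNA from pools of dissected outflow tract was labelled with biotin and hybridised to Affymetrix mouse arrays, 3 for superior and 3 for inferior tissue. The deposited intensity signals are linear; the authors computed them with MAS5, per the submitters' processing notes, which give no version in the sources used here. MAS5 subtracts mismatch from perfect-match probes, so dim signals are noisy, and scaling makes each signal relative to its array (in the files, the mean after trimming 2% at either end was 100.0). Arrays give no count, and their number limits the precision.

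Gene names came from the platform's annotation: 34945 named 1 gene, 932 several and 9160 none, and 64 controls were left out. Symbols checked by gene ID against RefSeq (GRCm38.p6) changed in 0 cases; coordinates are those of the sequence table. Signals became log2(signal + 3.2), the offset being their 25th percentile, and folds of dim genes are understated on this scale. The 22518 probe sets with a mean log2 value above the median were fitted with limma 3.58.1 in R 4.3.3 (region and pool number; eBayes with trend and robust variance; Benjamini-Hochberg over all tested; threshold 0.05). The procedure was tested on simulated data with normal noise of the same spread for every probe set and a built-in pool effect. Real arrays need not share that setting, so the simulation checks the code and not the calls. Standard errors are those of this fit, which has 2 residual degrees of freedom before moderation. Same-numbered arrays of the regions deviated together from their region means (correlations 0.79, 0.43 and 0.51 for pools 1, 6 and 7), while unlike numbers gave -0.54 to 0.20. The pairing followed the pool numbers that the labels share, and no source used here says that same-numbered arrays came from the same embryos. Deviations were centred within the 3 arrays of a region, so these correlations depend on each other and cannot serve as an independent test of the pairing.

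Members and gene lists were chosen with earlier results of these data known. Named genes are all members, each represented by its probe set of highest mean signal; called partners and the 4 with the largest difference of the brightest probe set; and the 5 genes most correlated with Tnnt1, where each gene enters by its tested probe set of highest correlation, not its brightest. Alternatives were no pool term, offsets of 1 and 16, 2 other filters, quantile, cyclic loess and 75th percentile scaling, a plain variance model and each pool left out.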

Additional observations from a re-analysis of the deposited data

How the results depend on the processing

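Of the 14 tested member probe sets, 11 kept their direction under every setting tried that tested them, the exceptions being the 2 bright Tnnt2 probe sets and Mybpc3. Quantile normalization gave -0.03 and -0.051 for the 2 bright Tnnt2 probe sets. Mybpc3 was -0.08 under quantile normalization, -0.078 under cyclic loess, -0.03 without pool 1 and -0.041 without pool 7. The dim Tnnt2 probe set ran against the brightest, at -0.33. The cause was not tested for any of these.

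The paired fit called 1 member probe set. Without the replicate block the count was 0, and it was 0 without the filter on dim probe sets, 0 among the top 25% by signal and 0 without trend and robust variance. Leaving out 1 pool gave 0 to 2, Mybpc1 being the added call without pool 6 or pool 7 (adjusted p = 0.0194 and 0.0334), with fewer residual degrees of freedom. A fit with no replicate block and without the superior 6 array, chosen after seeing the data, called 0. For the pool term the count was 1, against 0 among the top 25% by signal, 2 without trend and robust variance, and 0 to 3 with 1 pool left out; all tested probe sets called for it numbered 3174, against 295 to 5019 with a pool left out. Calls over the whole table for the region numbered 36, against 0 without the block, 22 with an offset of 1, 1 without the filter, 2 among the top 25%, 0 without trend and robust variance, and 9, 231 and 113 without pools 1, 6 and 7. The members' median difference of 0.24 was 0.077 under quantile normalization and 0.13 to 0.25 with 1 pool left out. Partner calls stayed at 0 under every setting. Signals near the background of 8.0, as for Tnnt3, limit what can be measured.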
